A study of Sus scrofa with 23 samples.

Results

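In all, 10 genes differed between cloned pig embryos made from Duroc and from Laiwu donor cells in the same direction at 3 of the 4 stages compared, the 1-cell, 4-cell and 8-cell embryo and the IT part of the blastocyst. They were 10 of the 8603 genes of the deposited table, of which 6937 had a level to compare in at least 3 of the 4 pairs. A gene counted as different at a stage when both clone libraries differed by over 1 in log2(FPKM + 1) and FPKM was at least 1 in either of them. FPKM counts sequenced fragments relative to the length of a gene and to how deeply the library was sequenced, so levels of different genes can be set side by side. Genes with a higher level in Duroc clones (NT-D) numbered 2, or 0.0288% of those 6937, and genes with a higher level in Laiwu clones (NT-LW) numbered 8, or 0.115%. After median-ratio scaling the split was 4 and 7. No gene differed at all 4 stages.

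Both clone groups were made by somatic cell nuclear transfer, in which the nucleus of an ear fibroblast replaces that of an oocyte. The fibroblasts came from a single Duroc boar and a single Laiwu boar, so breed, animal and cell line cannot be told apart. Recipient oocytes of both groups were matured in vitro from slaughterhouse ovaries of hybrid sows. Oocytes with donor cells were kept in PZM3 medium before fusion, and the clones were then cultured in vitro under low oxygen. The third group (IV-D) held Duroc embryos fertilized in vivo, sired by the same Duroc boar. By the paper, all clones were male, while IV-D embryos of both sexes were pooled without sexing. IT was the part of the blastocyst with the inner cell mass together with trophectoderm, and TE was trophectoderm alone, both cut from blastocysts. Each library pooled several oocytes or embryos. Each condition had 1 library in the deposited table, so the values carry no replicate error and no p-value between conditions was made. By the paper, NT-D and IV-D samples of some stages were also sequenced in biological replicates. The deposited table holds at most 1 of these per condition. The intervals given cover counting error only.

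An embryo begins on RNA stored in the oocyte and turns to its own genome later, in the pig around the 4-cell stage. Before that switch most RNA of the embryo is that of the oocyte. Duroc is a lean commercial breed, and Laiwu is a Chinese breed known for fat within the muscle. The reference genome to which the reads of all groups were aligned comes from a Duroc animal.

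Depth was 15028088 to 21503604 fragments over the 8 libraries compared. Between 6635 and 7218 genes had FPKM of at least 1 in them. The median difference of all genes was within 0.1 on the log2 scale in 1-cell, 4-cell and 8-cell embryos and in IT, and was -0.37 in 2-cell embryos and 0.14 in TE. The morula libraries stood apart in oocyte transcripts, whose FPKM over 22 genes summed to 942 in the NT-D library and to 160 in the NT-LW library. Of these 22 genes, 17 were higher in NT-D morulae and 0 were higher in NT-LW morulae, where 14.1% and 7.02% of all genes tested were. Among 2-cell libraries 14 of the 22 were higher in NT-LW and 0 in NT-D, beside 15.5% and 0.647% of all genes tested. In 8-cell embryos, a stage of the rule, 5 of 20 tested were higher in NT-LW and 0 in NT-D, beside 3.99% and 2.15%. Their median difference there was -0.53, with sums of 909 in NT-D and 1278 in NT-LW. In 1-cell embryos 0 of 22 were higher in NT-LW and 1 in NT-D. In 4-cell embryos these numbers were 0 and 0, and in IT 1 and 0 of 5 tested. The part of this in the 8-cell calls was not tested. KRT18, a trophectoderm keratin, was at 917 FPKM in TE of NT-D and 1593 in TE of NT-LW, and at 532 and 834 in IT. Other trophectoderm markers separated the parts unevenly. KRT8 was at 735 in TE and 441 in IT of NT-D, and at 1033 and 600 in NT-LW. GATA3 was at 18.5 in TE and 17.1 in IT of NT-D, and at 15.1 and 14.4 in NT-LW. TEAD4 was at 7.47 in TE and 4.36 in IT of NT-D, and at 5.90 and 6.64 in NT-LW. NANOG, a marker of the inner cell mass, was at 5.00 and 3.76 in IT and at 0 in TE of NT-D and NT-LW.

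The stages contributed unequally. Of the 10 genes, 9 were called in 4-cell embryos, 10 in 8-cell embryos, 10 in IT and 1 in 1-cell embryos, all in their own direction. Over all genes tested, those higher in NT-D made up 4.69% in 1-cell embryos, 0.972% in 4-cell embryos, 2.15% in 8-cell embryos and 2.7% in IT. Those higher in NT-LW made up 1.7%, 3.42%, 3.99% and 2.54% at the same stages. Since these calls chose the genes, nothing is read from the counts. By the paper, biological replicates of NT-D and IV-D embryos varied more at the 4-cell stage than at the other replicated stages. The deposited table holds 1 library per condition, so the part of such variation in the 4-cell calls was not tested. Of all 8603 genes, 1288 were called in the same direction at 1 stage, 111 at 2 stages and 7194 at none. Of the 1409 genes called at any of the 4 stages, 52 were called in both directions at different stages.

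**Figure D1:**
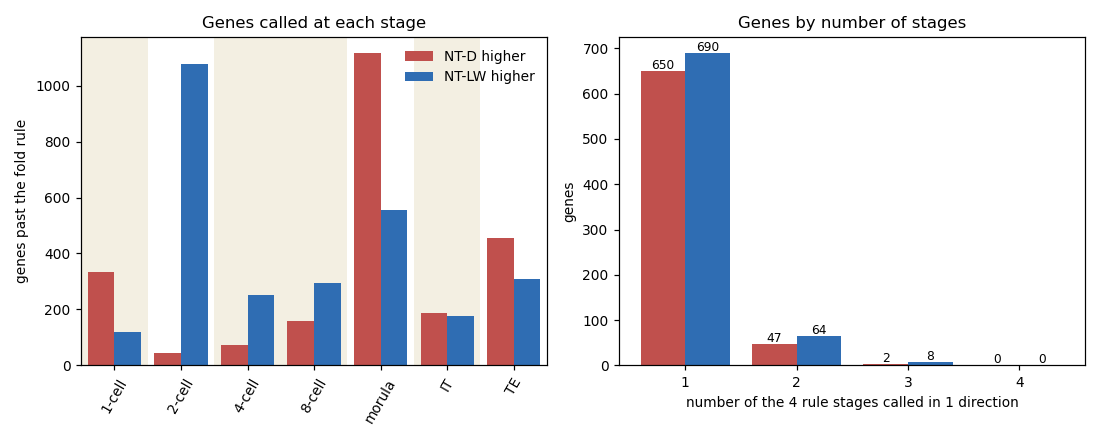
Number of genes past the fold rule at each stage (left, shaded stages are those of the rule) and by the number of the 4 rule stages at which they were called in the same direction (right), red for NT-D higher and blue for NT-LW higher. At 3 stages 2 and 8 genes are left, and at 4 stages 0.

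LDHB encodes the B subunit of lactate dehydrogenase, the enzyme that interconverts pyruvate and lactate, both of them fuels of the early embryo. In NT-D its FPKM was 3.42 in 1-cell embryos, 4.50 in 4-cell embryos, 7.38 in 8-cell embryos and 20.7 in IT. In NT-LW it was 1.87, 31.2, 104 and 558 at the same stages. In 1-cell embryos NT-D was higher, by 1.82-fold (95% counting interval 1.22 to 2.76) and within the limit, and at each later stage of the rule NT-LW was above NT-D. The fold of NT-LW over NT-D was 6.94 (5.47 to 8.92) in 4-cell embryos, 14.1 (12 to 16.6) in 8-cell embryos and 27.0 (24.7 to 29.6) in IT. In libraries that the rule did not use, LDHB was at 2.46 and 4.52 in 2-cell embryos, 30.8 and 240 in morulae and 20.2 and 547 in TE of NT-D and NT-LW. The morula and TE differences, -2.92 and -4.69 on the log2 scale, had the same direction, while the 2-cell difference of -0.68 did not pass the limit. IV-D embryos had 2.53 in 4-cell embryos, 30.0 in 8-cell embryos, 51.0 in IT and 19.9 in TE. The in vitro matured oocytes held 3.52. In pooled embryos, fewer cells of a type and less RNA per cell cannot be told apart, here and for the genes that follow.

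The other lactate dehydrogenase genes of the table, named after their values were seen, were LDHA, the A subunit, and LDHC, the subunit of germ cells. LDHA passed the limit at 0 of the 7 stages, with 68.2 FPKM in IT of NT-D and 55.0 in IT of NT-LW. LDHC was called only in the morula, where NT-D was higher by 1.18 on the log2 scale. As a share of the summed FPKM of the 3 genes, LDHB went from 2.57% in 1-cell embryos to 22.9% in IT in NT-D, and from 1.26% to 90.9% in NT-LW. In IV-D it was 1.97% in 1-cell embryos, 35.1% in 8-cell embryos, 57.9% in morulae, 31.4% in IT and 7.35% in TE. NT-D and NT-LW had 7.38% and 43.8% in 8-cell embryos, 26.5% and 76.9% in morulae and 26.2% and 91.9% in TE.

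The symbol LDHB has 2 positions in the RefSeq annotation of Sscrofa11.1. One is on chr5:51810932-51831218, with 8 exons, and the other is an intronless copy on chr2:12988754-12990033 on the minus strand. Over 1086 aligned coding bases both copies were 99.3% identical, with 8 differing bases and 0 gaps, so fragments of one can be counted at the other and the value of LDHB is uncertain in that respect. Which of these positions the gene of the table has was not determined here. The following 120 bases of the coding sequence, inside 1 exon on chromosome 5, show how little separates the copies, with the 2 differing bases of the window in capitals. Coordinates are chr5:51824924-51825043 on the plus strand and chr2:12989414-12989533 on the minus strand.
LDHB on chromosome 5: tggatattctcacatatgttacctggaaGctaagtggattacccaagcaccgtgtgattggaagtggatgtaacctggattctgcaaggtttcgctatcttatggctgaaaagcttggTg
LDHB copy on chromosome 2: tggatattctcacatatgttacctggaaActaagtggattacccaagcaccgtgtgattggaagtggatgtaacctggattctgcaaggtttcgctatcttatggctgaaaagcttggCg

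CRK encodes an adaptor protein that links tyrosine-phosphorylated proteins to small GTPase signaling, in adhesion and migration. In NT-D its FPKM stayed between 29.0 and 51.7 over the 4 stages of the rule, with 29.0 in 1-cell embryos, 33.1 in 4-cell embryos, 32.7 in 8-cell embryos and 51.7 in IT. In NT-LW it was 50.5, 111, 412 and 472. All 4 NT-LW values were above their NT-D partners, and the 1-cell difference of -0.78 on the log2 scale did not pass the limit. NT-LW over NT-D was 3.36-fold (3.16 to 3.57) in 4-cell embryos, 12.6-fold (12 to 13.2) in 8-cell embryos and 9.13-fold (8.79 to 9.50) in IT. The stages outside the rule gave 43.3 and 62.1 in 2-cell embryos, 41.3 and 299 in morulae and 35.0 and 315 in TE of NT-D and NT-LW. Differences in the morula and TE, -2.83 and -3.13, had the same direction. In IV-D embryos CRK lay between 32.5 and 62.4 from the 1-cell stage to TE, and in vitro matured oocytes held 20.1.

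CRKL, the close relative of CRK, was named after its values were seen. Its FPKM in 8-cell embryos of NT-D and NT-LW was 3.60 and 4.80, and in IT it was 4.51 and 5.57. Neither pair passed the limit, while CRKL was higher in NT-D by 1.2 on the log2 scale in 1-cell embryos and higher in NT-LW in 2-cell embryos, with 7.42 in NT-D and 23.8 in NT-LW. CRK lies on chr12:47656805-47685641 on the minus strand. SPATA22, another of the 10 genes, is on the same chromosome. Of the 11 table genes between the pair, 3 were higher in NT-LW and 1 in NT-D at any of the 4 stages, and 0 belonged to the 10. Of 6838 table genes with 1 position, 8.25% were higher in NT-LW and 7.12% in NT-D at any of these stages. The 250 bases before the annotated start of CRK, chr12:47685642-47685891 read on the minus strand, are shown because CRK had one of the largest lasting differences. Capitals mark matches on either strand to the GC box GGGCGG, the CCAAT box CCAAT and the TATA box TATAAA.
Before CRK: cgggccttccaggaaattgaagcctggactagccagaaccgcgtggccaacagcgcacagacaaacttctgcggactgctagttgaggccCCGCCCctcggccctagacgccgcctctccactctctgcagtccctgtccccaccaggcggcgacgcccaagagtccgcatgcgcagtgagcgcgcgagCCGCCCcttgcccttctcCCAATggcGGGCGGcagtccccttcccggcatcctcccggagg
It holds 3 GC boxes, 1 CCAAT box and 0 TATA boxes. Among 19556 protein-coding starts, 45.9% hold a GC box, 31.9% a CCAAT box and 9.77% a TATA box in the 250 bases before them. The matches are a description of the reference sequence.

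SPATA22 encodes a protein of meiotic recombination that works with MEIOB on single-stranded DNA. It lies on chr12:49573050-49609232. Its FPKM in NT-D was 10.4 in 1-cell embryos, 3.60 in 4-cell embryos, 42.3 in 8-cell embryos and 6.70 in IT. In NT-LW it was 20.9, 15.0, 87.1 and 21.3. NT-LW was higher in each of these pairs, by -0.94, -1.80, -1.02 and -1.53 on the log2 scale of NT-D minus NT-LW, and the 1-cell pair missed the limit. The morula pair was opposite, with 6.49 in NT-D and 0.935 in NT-LW, a difference of 1.95. In TE the values were 3.64 and 27.6, again with NT-LW higher, by 7.58-fold (5.82 to 10). IV-D embryos peaked in 8-cell embryos too, with 210, and in vitro matured oocytes held 20.6. MEIOB, named after its values were seen, was 1.47 in IT of NT-D and 4.82 in IT of NT-LW, and no other rule stage passed the limit for it.

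PAGE2B belongs to an X-linked family expressed in testis and tumors. It lies on chrX:47916076-47919904. Its level was highest early in both groups, in NT-D with 30.5 FPKM in 1-cell embryos against 9.17 in 4-cell embryos, 1.06 in 8-cell embryos and 1.44 in IT. In NT-LW the values were 21.8, 28.1, 13.9 and 4.90. The order turned between the stages, with NT-D higher in 1-cell embryos by 0.47 on the log2 scale, within the limit, and NT-LW higher afterwards. NT-LW over NT-D was 3.06-fold (2.39 to 3.96) in 4-cell embryos, 13.2-fold (7.29 to 26.1) in 8-cell embryos and 3.39-fold (1.98 to 6.10) in IT. At the 8-cell stage NT-D had 12 fragments and NT-LW had 134. Morulae held 0.180 and 2.31, a difference of -1.49, and TE held 3.05 and 4.91, a difference of -0.54. Oocytes matured in vitro held 43.8 and oocytes matured in vivo 32.0. In IV-D embryos PAGE2B went from 69.0 in 1-cell embryos to 28.2 in 4-cell embryos and 8.03 in 8-cell embryos. These pools were of mixed sex and the clones male, which bears on the comparison for an X-linked gene.

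ARMT1 encodes a protein methyltransferase of acidic residues. It was the only one of the 7 genes with a symbol that was higher in Duroc clones. In NT-D its FPKM was 7.74 in 1-cell embryos, 6.46 in 4-cell embryos, 19.2 in 8-cell embryos and 16.3 in IT. In NT-LW it was 6.39, 1.90, 8.67 and 5.25. NT-D over NT-LW was 3.41-fold (2.71 to 4.31), 2.21-fold (1.97 to 2.49) and 3.10-fold (2.73 to 3.53) at the last 3 of these stages. None of the stages outside the rule passed the limit, with differences of -0.41 in 2-cell embryos, 0.16 in morulae and 0.87 in TE. IV-D embryos held 9.76 in 4-cell embryos, 36.2 in 8-cell embryos and 26.5 in IT.

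ARMT1 lies on chr1:14777131-14795323 on the minus strand, head to head with RMND1, a gene of mitochondrial translation that starts 308 bases away and was named after its values were seen. RMND1 was higher in NT-D in 8-cell embryos, with 25.6 against 5.79 FPKM, and in IT, with 16.6 against 2.86. At the 4-cell stage 3.18 against 1.33 gave a difference of 0.85, inside the limit, so RMND1 was not one of the 10. In TE RMND1 was at 23.6 in NT-D and 1.95 in NT-LW. Other table genes within 500000 bases of ARMT1 did not share this direction. MTHFD1L was called at no stage of the rule, and AKAP12 was higher in NT-LW in IT, with 3.91 against 0.702 in NT-D. The 300 bases printed here are shown because ARMT1 and RMND1 differed in the same direction in 8-cell embryos and IT. The printed bases are chr1:14795328-14795627 on the plus strand, with a match to the GC box in capitals.
Between ARMT1 and RMND1: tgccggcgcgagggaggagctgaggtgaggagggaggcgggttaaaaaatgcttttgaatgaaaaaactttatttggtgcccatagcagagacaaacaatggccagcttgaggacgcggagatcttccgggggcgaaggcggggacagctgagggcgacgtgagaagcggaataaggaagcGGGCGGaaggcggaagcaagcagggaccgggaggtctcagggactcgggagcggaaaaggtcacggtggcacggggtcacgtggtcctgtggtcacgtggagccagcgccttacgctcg
It is 60.7% G or C, with 1 GC box, 0 CCAAT boxes and 0 TATA boxes. Of all protein-coding starts, 47.6% hold a GC box within 300 bases.

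**Figure D2:**
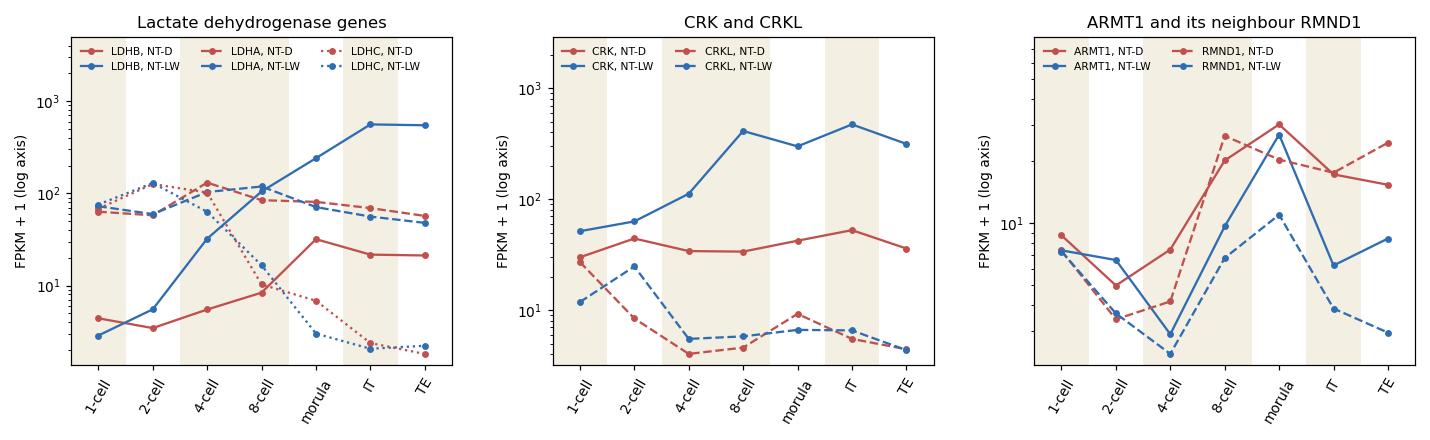
FPKM plus 1 on a log axis against stage for LDHB with LDHA and LDHC, CRK with CRKL, and ARMT1 with RMND1, red for NT-D and blue for NT-LW, solid for the gene of the 10 and dashed or dotted for the other genes. LDHB parts from 4.50 against 31.2 in 4-cell embryos, while LDHA is at 68.2 and 55.0 in IT.

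PKIB and GRAMD1B reached less than 10 FPKM in all 8 libraries of the rule and are named here after their values were seen. PKIB encodes an inhibitor of protein kinase A. In NT-D it was at 0.0343, 0, 0.747 and 1.15 FPKM in 1-cell, 4-cell and 8-cell embryos and in IT, and in NT-LW at 0.109, 1.36, 3.15 and 4.59. At the 4-cell stage NT-D had 0 fragments and NT-LW had 47, so NT-LW was at least 12.3-fold higher against a floor of 3 fragments, and the lower end of the 95% counting interval of the fold was 9.61. The morula pair was opposite, with 12.6 in NT-D and 4.27 in NT-LW. GRAMD1B encodes a protein that moves cholesterol between the plasma membrane and the endoplasmic reticulum. It was at 0.694, 0.806, 2.79 and 3.98 in NT-D and at 0.626, 2.64, 8.62 and 9.69 in NT-LW. Morulae were opposite for it as well, with 14.3 in NT-D and 6.61 in NT-LW, while TE had 3.09 and 9.37. PKIB lies on chr1:39913753-40022971 and GRAMD1B on chr9:50259020-50507328.

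Of the 10 genes, 3 have no symbol in the table of names used here, 30% against 14.3% of all genes of the table. ENSSSCG00000000207, with a counted length of 489 bases, was higher in NT-D. It was at 1.52, 50.6, 231 and 439 FPKM in 1-cell, 4-cell and 8-cell embryos and in IT of NT-D and at 0.30, 22.9, 49.0 and 86.4 in NT-LW. Its fold was 2.21 (1.87 to 2.63), 4.72 (4.24 to 5.27) and 5.08 (4.73 to 5.46) at the last 3 of these stages. Outside the rule it had 230 and 39.8 in morulae and 367 and 59.8 in TE of NT-D and NT-LW. It was thus higher in NT-D in both, by 2.50 and 2.60 on the log2 scale. IV-D embryos held 102, 245, 108 and 485 in 4-cell and 8-cell embryos, in IT and in TE.

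ENSSSCG00000032769 and ENSSSCG00000034642 were higher in NT-LW, and had 1 to 10 fragments in each NT-D library of the rule. ENSSSCG00000032769 was at 0.158, 0.339, 0.264 and 0.720 FPKM in NT-D, from 1 to 6 fragments, and at 0.249, 7.71, 44.8 and 7.69 in NT-LW in 1-cell, 4-cell and 8-cell embryos and in IT. Its ratio in 8-cell embryos was 170 (46.6 to 1409) on 2 against 288 fragments. IV-D embryos had 17.7 in 4-cell embryos and 12.6 in morulae, and under 1 at all other stages. ENSSSCG00000034642 was the gene called in 1-cell embryos, with 0.268 in NT-D and 4.66 in NT-LW, a ratio of 17.4 (4.54 to 148) on 2 against 44 fragments. It was at 1.44 and 0.791 in 4-cell embryos, 0.561 and 125 in 8-cell embryos and 0.511 and 8.05 in IT. At the 8-cell stage the ratio was 223 (95.1 to 687) on 5 against 944 fragments. In 2-cell embryos the order was opposite, with 3.59 in NT-D on 30 fragments and 0.107 in NT-LW on 1 fragment. The counted lengths of both genes, 393 and 462 bases, were short against a median of 3182 over all genes.

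**Figure D3:**
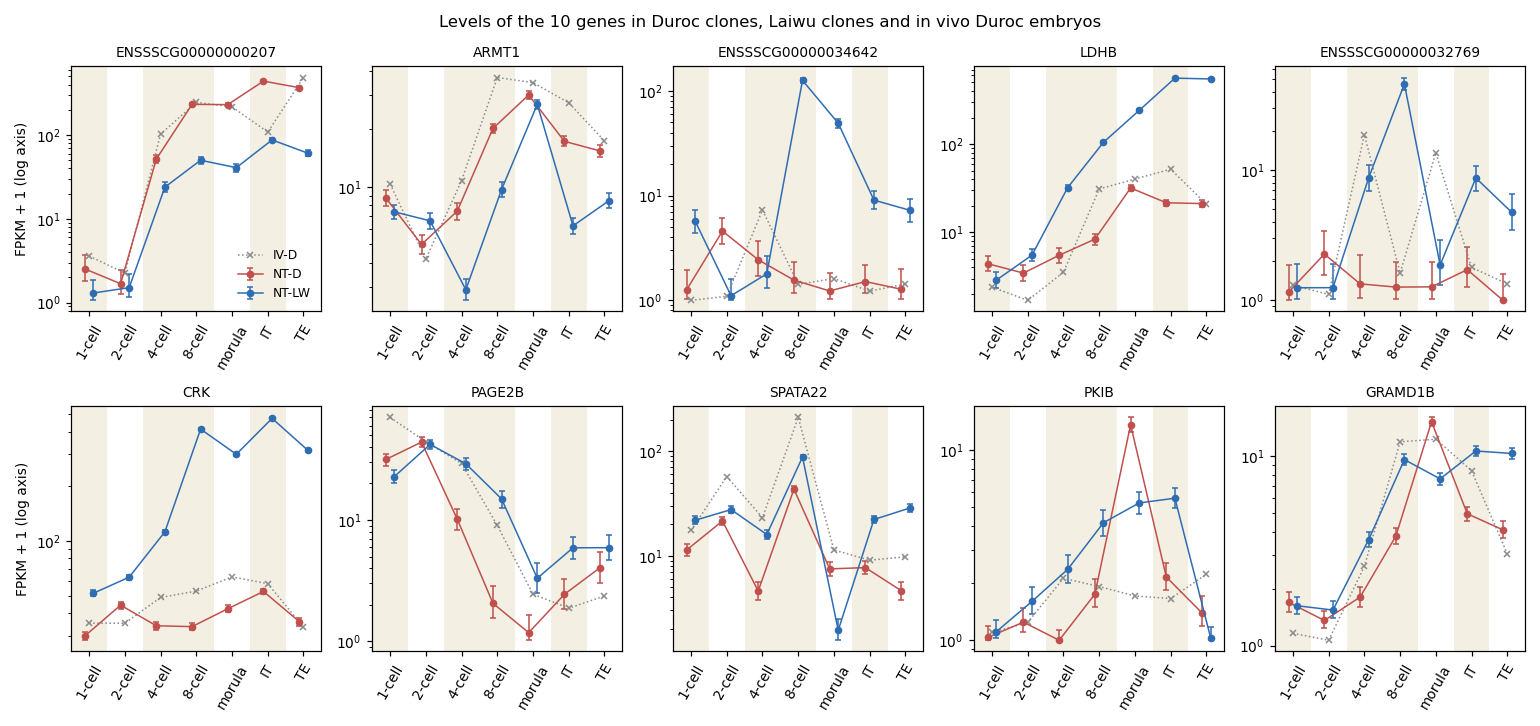
FPKM plus 1 on a log axis against stage for the 10 genes in NT-D (red), NT-LW (blue) and IV-D (grey, dotted), 1 library per point, with exact Poisson 95% intervals on the clone values. LDHB reaches 558 in IT of NT-LW against 20.7 in IT of NT-D, and CRK 472 against 51.7.

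The 3 stages that the rule did not use gave the same measure in other libraries. In TE 9 of the 10 genes had a level to compare, and 7 were called in their own direction and 0 in the opposite one. PKIB, under 1 FPKM in both TE libraries, was not tested. It was at 0.391 in NT-D on 11 fragments and at 0.0314 in NT-LW on 1 fragment, opposite to its direction. Of all genes tested in TE, 6.84% were higher in NT-D and 4.6% were higher in NT-LW. TE came from blastocysts like IT, and IT holds trophectoderm as well, so the TE libraries are no independent sample of another cell type. In morulae 9 of the 10 were tested, and 5 were called in their own direction and 3, PKIB, GRAMD1B and SPATA22, in the opposite one. Over all genes 14.1% were higher in NT-D morulae and 7.02% in NT-LW morulae. These 3 genes were higher in NT-D morulae, the library that also held more oocyte transcripts and more KRT18, at 269 against 14.5 FPKM. Of 16 trophectoderm markers tested in morulae, 6 were higher in NT-D and 2 in NT-LW. GATA3, at 3.17 against 1.59, and TEAD4, at 19.2 against 14.3, did not pass the limit. The part of these library differences in the result was not tested. In 2-cell embryos 7 of the 10 were tested, and 0 were called in their own direction and ENSSSCG00000034642 in the opposite one. There 0.647% of all genes tested were higher in NT-D and 15.5% in NT-LW. This background moved with the scaling, from 45 and 1076 genes to 420 and 434 in 2-cell embryos and from 456 and 307 to 334 and 435 in TE after median-ratio scaling.

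**Figure D4:**
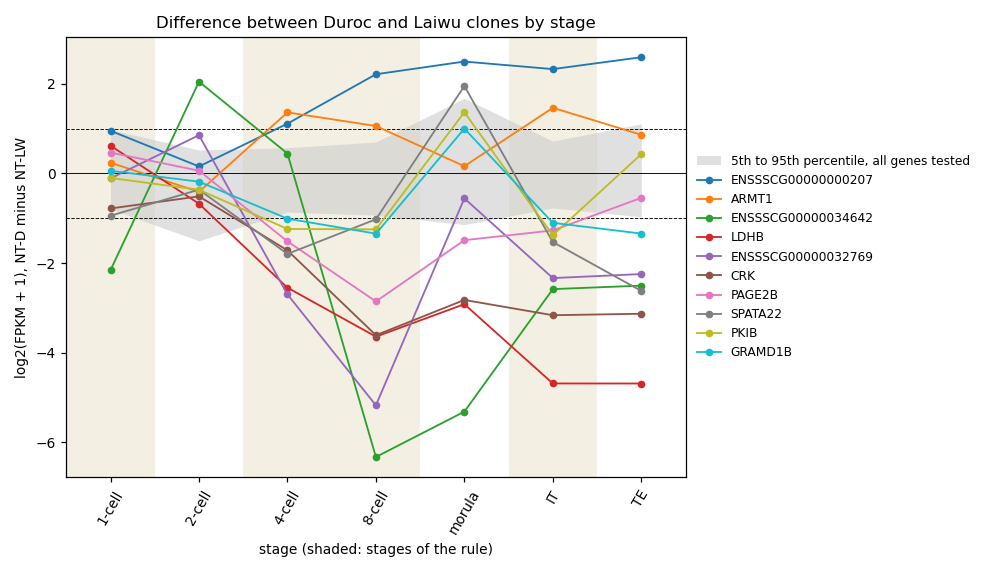
Difference in log2 of FPKM plus 1 (NT-D minus NT-LW) by stage for the 10 genes, with the limits of 1 and -1 as dashed lines and the range from the 5th to the 95th percentile of all genes tested in grey; shaded stages are those of the rule. LDHB is at -4.69 in IT and TE, and SPATA22 turns to 1.95 in the morula.

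The limit of the rule fell between close values. By the third largest difference in 1 direction, GRAMD1B at -1.01 and SPATA22 at -1.02 were the genes just inside. Just outside were ENSSSCG00000005172 at 0.97 and RFC4, a loader of the replication clamp, at -0.97. RFC4 was higher in NT-LW in 8-cell embryos, with 66.7 against 20.1 FPKM in NT-D, and in IT, with 77.9 against 22.6.

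In all, 20 lists of genes for pathways and cell types covered 394 of the 8603 genes of the table and held 0 of the 10 genes. The lists covered a small part of the table, so nothing is read from this 0. RFC4 of the mismatch repair list became a lasting gene after rescaling to a sum and after median-ratio scaling. Of the 394, 82 were called at any of the 4 stages, 20.8% against 16.4% of all genes, and 5 at 2 stages in the same direction. Those 5, named after their values were seen, were RFC4 of mismatch repair, CPT1A of lipid metabolism, ATP8 of the mitochondrial genome, which overlaps ATP6 and is uncertain for that, and GSTO1 and AKR1A1 of the NRF2 response. CPT1A, which brings fatty acids into mitochondria, was at 0.369 FPKM in NT-D and 5.39 in NT-LW 4-cell embryos and at 4.21 and 10.5 in 8-cell embryos, differences of -2.22 and -1.14 on the log2 scale. The list of 19 lipid synthesis and storage genes had 4 calls with NT-D higher over the 4 stages. It had 4 with NT-LW higher, 2 of them of CPT1A, whose role given above is neither synthesis nor storage. These calls were of 66 combinations of gene and stage tested. Over all genes, 2.61% of such combinations were higher in NT-D and 2.93% in NT-LW. Cholesterol biosynthesis had 2 and 0 calls of 51 for 15 genes. Nuclear genes of oxidative phosphorylation had 0 and 0 of 213 for 55 genes, and those of the mitochondrial genome 2 and 0 of 52 for 13 genes. The 2 calls of the mitochondrial genome were of ATP8 alone. ATP8 was at 0 FPKM in NT-LW 4-cell embryos, and its morula difference of -4.49 was opposite.

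Median differences of that lipid list lay between -0.18 and 0.09 at the 4 stages, beside -0.08 to 0.01 over all genes tested. Over all 20 lists they lay between -0.71, for 3 tested genes of antigen presentation, and 0.95, for 7 tested genes of DNA methylation, both in 1-cell embryos.

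The remaining lists are given in the same order, NT-D higher and then NT-LW higher, with the number of gene and stage combinations tested. Over all genes, 2.61% of 28760 such combinations were higher in NT-D and 2.93% in NT-LW. Mismatch repair had 0 and 7 calls of 72, the NRF2 response 4 and 5 of 96, the proteasome 1 and 1 of 108 and cytosolic ribosomal proteins 1 and 6 of 174. Imprinted genes had 1 and 4 of 79, histone lysine methylation enzymes 4 and 2 of 78 and DNA methylation 3 and 1 of 26. Antigen presentation had 1 and 1 of 13, the interferon and antiviral response 2 and 2 of 26 and heat shock and chaperones 2 and 2 of 116. Among cell type markers, fibroblast markers had 2 and 4 of 39, cumulus and granulosa cell markers 1 and 2 of 15, oocyte transcripts 1 and 6 of 69, pluripotency and ICM genes 5 and 8 of 60 and trophectoderm markers 0 and 1 of 38. The 1 Y-linked gene of the table had 0 and 0.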

How the data were processed

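The authors prepared cDNA by SMART-Seq v4, used HISAT2 2.0.4 with the Sscrofa11.1 genome and HTSeq 0.9.1 with Ensembl genes, and deposited FPKM values for 23 libraries, 1 per condition. The deposited table is named for differentially expressed genes, and how its 8603 genes were chosen is not given in the sources used here. FPKM steps gave back whole fragment numbers for 100% of genes, within 0.00106 fragments, and the depth of each library. These gave exact Poisson intervals for levels and exact Clopper-Pearson intervals for folds, at 95%. A fold against 0 fragments is a lower bound at 3 fragments.

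Clone libraries of the same stage were compared with the rule given above, with a pseudocount of 1, which understates folds of low genes. Genes with a symbol were named where FPKM reached 10 in 1 of the 8 libraries, the 8 largest median differences per direction, and of genes without a symbol at most 2 IDs per direction. Exceptions are marked. Members, lists and tests were chosen with earlier results of these data known, and the lists were written from general knowledge. Symbols matched 7371 of the genes, and positions and sequences are from RefSeq for Sscrofa11.1. Alternatives were another pseudocount, other limits, 2 scalings, all 7 stages and an exact binomial test on recovered fragments. Scripts were tested on simulated data and ran under blast 2.17.0, scipy 1.17.1, pandas 2.3.3, numpy 2.4.6 and python 3.11.15.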

Additional observations from a re-analysis of the deposited data

Results flagged for a closer look

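In 4 of the 10 genes a library pair outside the rule passed the limit in the direction opposite to the 3 stages that chose the gene, and this difference between stages was not tested, since each condition had 1 library. SPATA22 was higher in NT-D morulae by 1.95 on the log2 scale, PKIB by 1.37 and GRAMD1B by 1.003. ENSSSCG00000034642 was higher in NT-D at the 2-cell stage by 2.05.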

How the results depend on the processing

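The number of lasting genes depended on the limits. It was 10 as reported, 24 with a pseudocount of 0.1, 6 with a minimum FPKM of 5, 3 with a log2 difference over 2, 19 after rescaling to a sum of 1000000 and 31 with the exact binomial test on fragments, which compares libraries and not conditions. All 10 were kept under the pseudocount, the sum and the binomial test, and 8 under median-ratio scaling, where GRAMD1B (-0.94) and SPATA22 (-0.97) fell inside the limit. Same-direction calls at 5 or more of all 7 stages left 5 genes, 4 of them among the 10, ENSSSCG00000000207, LDHB, ENSSSCG00000034642 and CRK. No gene was called at 4 of 4 stages as reported. With a pseudocount of 0.1 and after rescaling to a sum, 2 of the 10 were, ENSSSCG00000000207 and SPATA22. Under the binomial test 2 different genes were, ZNF471 and ENSSSCG00000038462, neither of them among the 10.

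Genes called at the 1-cell, 4-cell and 8-cell stages and in IT numbered 455, 325, 451 and 361. They were 764, 599, 863 and 616 with a pseudocount of 0.1, 6, 39, 57 and 66 with a log2 difference over 2, and 899, 726, 1105 and 828 with the binomial test. The share with NT-D higher at the 1-cell stage was 73.4%, and 55.9% after rescaling to a sum. At the 4-cell stage it was 22.2%, and 39.5% after median-ratio scaling. In 2-cell embryos it was 4.01% and 49.2%, and in TE 59.8% and 43.4%, before and after median-ratio scaling. Rescaling to a sum made it 70.1% in TE. The causes were not tested. Own-direction calls of the 10 genes in morulae and TE stayed within 1.5 times under the alternatives for single stages. Opposite calls in morulae went from 3 to 0 with a log2 difference over 2 and to 2 under both scalings. No paired analysis was possible, since each condition had 1 library and the labels give a replicate number for only part of the conditions. A fit over the 7 stage pairs with stage as a block was not run, since it would take stages as repeats.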
